A study of Mus musculus with 2 samples.

Results

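The proteasome genes described here are the 53 gene symbols, of 45777 in the deposited transcript table, that begin with Psm, a letter from a to g and a digit. They hold 91 of the 129299 transcripts listed. Each gene's estimated counts were summed over its transcripts in each library. By role they are 31 constitutive subunits (14 of the 20S core and 17 of the 19S cap), the 3 immunoproteasome subunits Psmb8, Psmb9 and Psmb10, the tissue-specific core subunits Psma8 and Psmb11, 3 assembly chaperones of the 19S cap, 4 activators, 1 inhibitor, 4 assembly chaperones of the 20S core, and 5 other symbols that match the pattern. Of the 53, 50 had at least 10 counts in at least 1 library. The other 3, Psmb11 (a thymus subunit), Psmb5-ps and Psmb6-ps2, were at 0 in both libraries. Promoter windows of RefSeq were read for 42 of the 53.

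The proteasome is the cell's main protease for proteins tagged with ubiquitin. Alpha rings gate the barrel-shaped 20S core, beta rings carry its cutting sites, and the 19S cap binds, unfolds and feeds in the substrate. Interferon-gamma induces the immunoproteasome subunits, which take the place of the catalytic beta subunits Psmb5 (by Psmb8), Psmb6 (by Psmb9) and Psmb7 (by Psmb10) in newly built cores and favour peptides that bind MHC class I molecules.

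Both groups were C57BL/6 mice (C57BL/6 N in the study's methods) on a high-fat diet (HFD), fed it for 18 weeks from 7 weeks of age. At diet week 13, 5 weeks before the end, one group received AAV-GFP, the control vector, and the other AAV-Wee1-AS, a vector for the long non-coding RNA transcribed antisense to Wee1. AAV-Wee1-AS was an AAV9 vector with a CMV promoter, which is not restricted to hepatocytes, and 1 liver library of poly-A RNA per group was analysed here. The study examined Wee1-AS in relation to ubiquitin-dependent turnover of CYCLIN B1, and the comparison made here asks how the mRNAs of the proteasome itself differed between these livers. No row was matched to Wee1-AS, so the labels could not be checked against it.

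The estimated counts summed to 55466182 in AAV-GFP and 48079335 in AAV-Wee1-AS. Values are given as counts, as TPM (a level per transcript length and library depth) where genes are compared with each other, and as a log2 ratio in which a positive value means higher with AAV-Wee1-AS. With 1 library per group there is no replicate check and no p-value. The design text speaks of 4 liver samples, of which 2 were analysed here, and the labels do not say whether a library holds RNA of 1 mouse or a pool. The 95% interval beside a ratio is an exact Clopper-Pearson interval for counting error only, so it does not cover differences between mice. Across the 15857 genes that reached 10 counts in either library, the median log2 ratio was -0.02, and the ratio was lower for transcripts of higher GC content (Spearman coefficient -0.69 across 15139 genes with a GC value, which all come from the same 2 libraries). Ratios with the trends of all genes with GC content and transcript length removed (trend-removed ratios) are therefore also given; they depend on the transcript that supplies the GC content, here the GENCODE transcript paired with the most abundant deposited one (44 of 50 genes; nearest in length where several or none are paired), with the gene's longest transcript as the alternative. All 8 hepatocyte markers were detected in both libraries, 3 higher and 5 lower with AAV-Wee1-AS (median -0.04).

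Proteasome genes were more often lower than higher with AAV-Wee1-AS, yet the genes past 2-fold, few in number, were higher. Of the 50, 19 were higher and 31 lower, with a median log2 ratio of -0.24, while of all genes tested 7847 were higher and 8010 lower. The interval lay wholly above 0 for 16 (39.1% of all genes) and wholly below 0 for 28 (38%). Psma8, Psmc6, Psmd1, Psme4 and Psmb7-ps2, 5 genes, were more than 2-fold higher, against 22.2% of all genes tested, and 0 were more than 2-fold lower, against 8.71%. Psma8 (0 and 26 counts) and Psmb7-ps2 (4 and 11 counts, with an interval that holds 0) passed the count filter only through AAV-Wee1-AS, and 3 were left where 10 counts were required in both libraries. At the 1.5-fold limit, 10 were higher against 31.8% of all genes and 8 lower against 24%. With the GC and length trends removed, 26 were higher and 24 lower with a median of 0.03, and the sign of 21 of the 50 ratios was the opposite one. On that scale 1 gene, Psma8, which was at 0 counts in AAV-GFP, was more than 2-fold higher (7.05% of all genes), the next being Psme4 at 0.93, and 3 were more than 2-fold lower (7.87%), and 3 and 5 passed the 1.5-fold limit (16.5% and 16.9%). Together the genes held 0.361% of the counts in AAV-GFP and 0.316% in AAV-Wee1-AS.

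**Figure D1:**
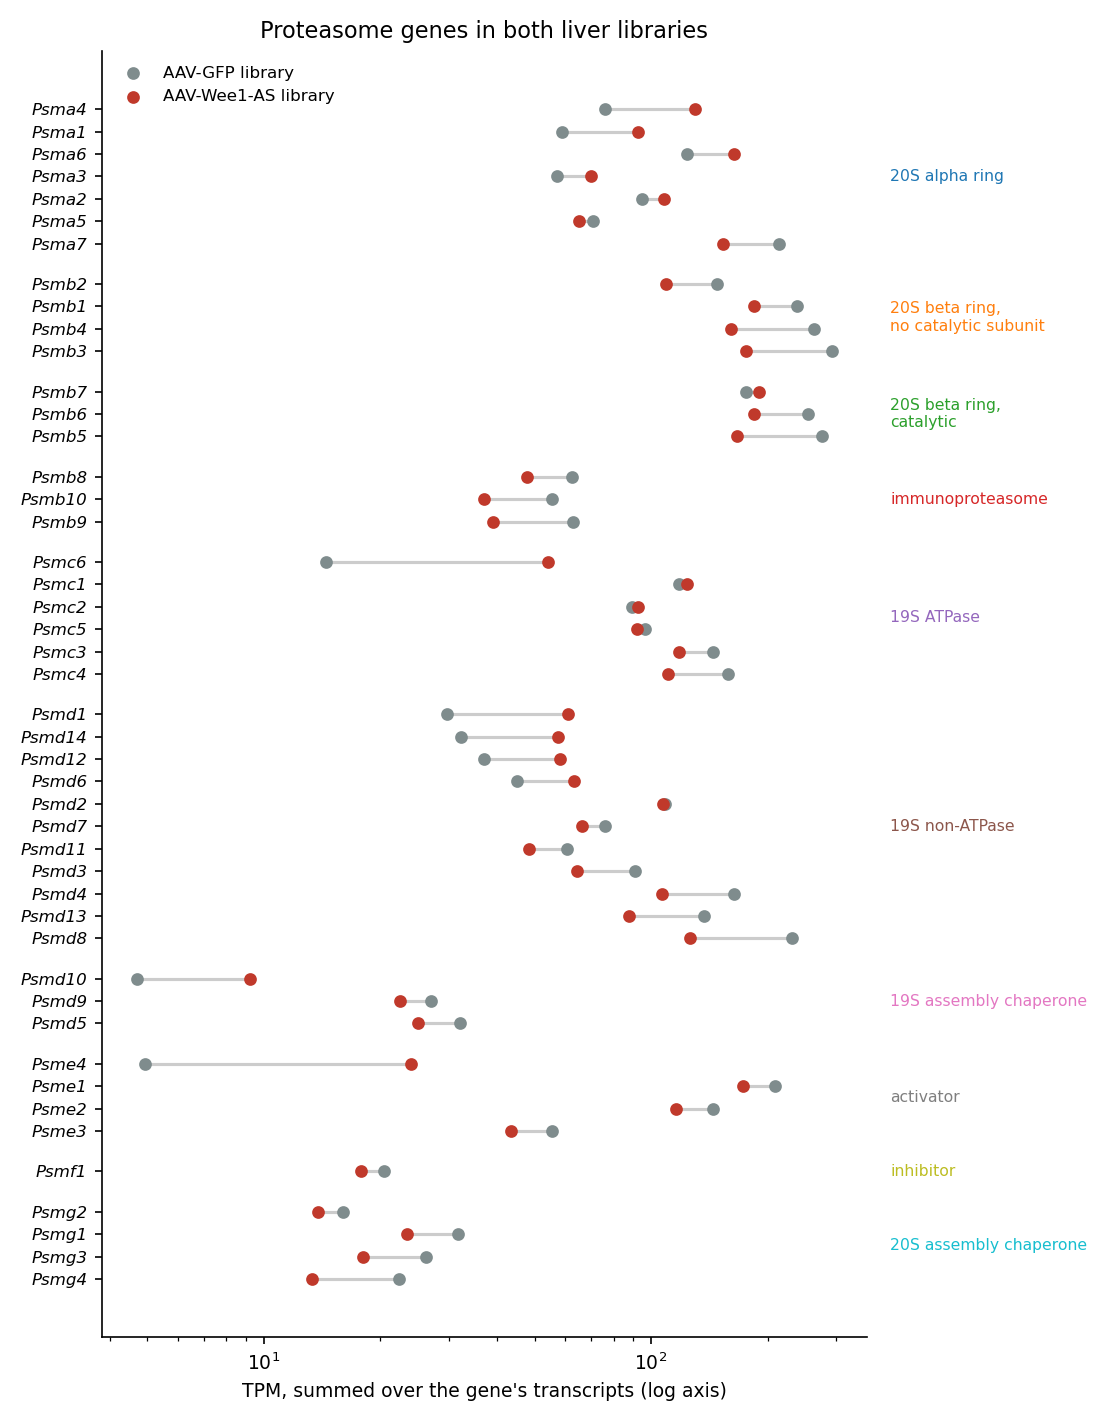
TPM of 46 proteasome genes (log axis) in the AAV-GFP library (grey) and the AAV-Wee1-AS library (red), grouped by role, 1 library per point. Psmc6 and Psme4 have the widest gaps, from 14.5 to 54.1 TPM and from 4.94 to 24.0 TPM, and all 3 immunoproteasome subunits lie to the left with AAV-Wee1-AS.

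The 3 immunoproteasome subunits were all lower with AAV-Wee1-AS. Psmb8, which replaces the chymotrypsin-like subunit, had 2514 counts in AAV-GFP and 1630 in AAV-Wee1-AS (log2 ratio -0.36, 95% counting interval -0.45 to -0.27). Psmb9, which replaces the caspase-like subunit, had 1809 and 954 counts (-0.66, -0.77 to -0.55). Psmb10, which replaces the trypsin-like subunit, had 2319 and 1312 counts (-0.56, -0.66 to -0.46). Their median of -0.56 was 0.46 below the median of the 31 constitutive subunits, -0.10 (immunoproteasome minus constitutive, -0.46). Their GC content was 55.8%, 55.3% and 56.5%, and genes of that GC content were lower as a whole: in the bin from 54.0% to 55.9%, of 10 bins of equal size, the median of all genes was -0.51, and in the next, up to 58.2%, it was -0.61. With the trends removed the ratios of Psmb8, Psmb9 and Psmb10 were 0.31, -0.02 and 0.16, their median was 0.16, and the gap to the constitutive median was 0.18 with the opposite sign. The transcripts behind these GC values of Psmb8 and Psmb9 measure 1628 and 1352 bases, against 1223 and 806 bases in the deposited table, and with GC content from the longest transcript the 3 ratios were 0.12, -0.13 and 0.17.

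Psmb8 and Psmb9 lie at chr17:34198195-34201454 and chr17:34182030-34187330, within the MHC class II region, and Psmb10 at chr8:105935728-105938392. Psmb9 stands head to head with Tap1, the peptide transporter gene. Their RefSeq starts, 34187330 on the minus strand and 34187556 on the plus strand, are 226 bases apart. Tap1 had 2765 and 1518 counts and a log2 ratio of -0.60 (-0.69 to -0.51), where all genes of its GC bin had a median of -0.61, and a trend-removed ratio of -0.0038. It was chosen for its position after its value was seen. The 250 bases before the RefSeq start are shown for the immunoproteasome subunits and for the catalytic subunits Psmb5 and Psmb6 that they replace (RefSeq sequences, build GRCm38.p6, 5′ to 3′ on the gene's strand), at chr17:34197945-34198194 (plus strand), chr17:34187331-34187580 (minus), chr8:105938393-105938642 (minus), chr14:54617996-54618245 (minus) and chr11:70525107-70525356 (plus). Capitals mark matches, on either strand, to 4 motifs. The interferon-gamma activated site was searched as TTCNNNGAA, and the interferon-stimulated response element as a pair of GAAA with 2 bases of any kind between them. The CCAAT box was searched by those letters. The antioxidant response core, bound by the Nfe2l1 and Nfe2l2 factors that drive constitutive proteasome genes, was searched as TGACNNNGC.
Psmb8: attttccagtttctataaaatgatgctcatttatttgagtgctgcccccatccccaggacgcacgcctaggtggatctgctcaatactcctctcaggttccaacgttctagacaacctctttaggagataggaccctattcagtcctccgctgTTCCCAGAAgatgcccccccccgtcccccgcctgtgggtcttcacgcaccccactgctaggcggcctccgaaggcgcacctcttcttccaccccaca
Psmb9: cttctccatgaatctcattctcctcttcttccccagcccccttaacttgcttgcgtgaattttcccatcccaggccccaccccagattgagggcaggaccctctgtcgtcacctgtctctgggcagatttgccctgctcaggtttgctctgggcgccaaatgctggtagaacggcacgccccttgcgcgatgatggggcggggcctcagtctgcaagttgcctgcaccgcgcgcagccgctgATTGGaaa
Psmb10: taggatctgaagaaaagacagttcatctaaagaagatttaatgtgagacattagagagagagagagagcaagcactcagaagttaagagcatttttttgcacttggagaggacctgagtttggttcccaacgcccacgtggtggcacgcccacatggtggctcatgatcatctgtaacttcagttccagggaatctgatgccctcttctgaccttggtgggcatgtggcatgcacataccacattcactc
Psmb5: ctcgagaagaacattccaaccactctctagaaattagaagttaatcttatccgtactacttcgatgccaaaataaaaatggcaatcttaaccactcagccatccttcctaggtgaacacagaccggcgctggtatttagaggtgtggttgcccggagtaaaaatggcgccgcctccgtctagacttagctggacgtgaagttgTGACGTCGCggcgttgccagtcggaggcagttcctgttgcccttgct
Psmb6: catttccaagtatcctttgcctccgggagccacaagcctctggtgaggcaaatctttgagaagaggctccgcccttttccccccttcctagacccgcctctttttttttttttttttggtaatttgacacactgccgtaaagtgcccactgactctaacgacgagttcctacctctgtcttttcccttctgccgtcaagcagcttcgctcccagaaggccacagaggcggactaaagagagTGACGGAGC

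In these windows Psmb8 held 1 match to TTCNNNGAA, 97 to 89 bases before the start, a motif found in 7.02% of 32851 windows of the same length and in 0 of 25 constitutive subunits. Psmb9 held 1 CCAAT match, 8 to 4 bases before the start, as did 33.8% of all windows and 10 of the 25 constitutive subunits. Psmb10 held no match to any of the 4. TGACNNNGC was found before Psmb5 (bases 47 to 39) and Psmb6 (bases 9 to 1), and in 4 of the 25 constitutive subunits with a window (16.0%, also Psmc6 and Psmd12) against 10.2% of all windows. The interferon-stimulated response element stood before 2 of the 25 (8.0%), Psmb3 and Psmd4, and in 2.98% of all windows, and it and TGACNNNGC also stood before the chaperone gene Psmd9. The GC box GGGCGG, which is not in capitals, was in 14 of the 25 (56.0%) and in 32.7% of all windows. Among these 14 was Psmb6 (bases 182 to 177), and the window of Psmb9 held it too (bases 55 to 50). Psmb7, which Psmb10 replaces, had no promoter window. A match says only that these letters stand in the window. Each window precedes 1 RefSeq start, not always that of the transcript with the most counts. Those of Psma6 and Psmc2, both with a CCAAT match, precede NM_001310583 (0 counts in both libraries) and NM_011188 (5.78% and 8.92% of counts).

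At the level of TPM, the constitutive catalytic subunits outweighed their immunoproteasome counterparts in both libraries. In AAV-GFP, Psmb5 was at 277 TPM and Psmb8 at 62.4, Psmb6 at 255 and Psmb9 at 62.8, and Psmb7 at 176 and Psmb10 at 55.4. In AAV-Wee1-AS, the same pairs were at 167 and 47.7, 185 and 39.0, and 191 and 37.0. The constitutive subunit was thus between 3.17 and 4.44 times its counterpart in AAV-GFP and between 3.50 and 5.15 times in AAV-Wee1-AS.

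The 3 pairs did not differ in one direction. The share of Psmb8 in Psmb8 plus Psmb5 was 18.4% (17.7% to 19.1%) in AAV-GFP and 22.2% (21.2% to 23.2%) in AAV-Wee1-AS, a change of the log2 ratio of the pair of 0.35 (0.24 to 0.45). The share of Psmb9 in its pair was 19.8% and 17.4%, a change of -0.22 (-0.35 to -0.10). The share of Psmb10 in its pair was 24.0% and 16.2%, a change of -0.70 (-0.81 to -0.59). Psmb8 was thus closer to its AAV-GFP level than Psmb5 was, while Psmb10 was lower and Psmb7 slightly higher. Summed over the pairs, the immunoproteasome share was 20.3% in AAV-GFP and 18.6% in AAV-Wee1-AS. With the trends removed the changes were 0.28 for Psmb8 over Psmb5, -0.30 for Psmb9 over Psmb6 and 0.12 for Psmb10 over Psmb7, the third with the opposite sign (56.5% against 48.7% GC). With GC content from the longest transcript they were 0.070, -0.051 and 1.16.

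**Figure D2:**
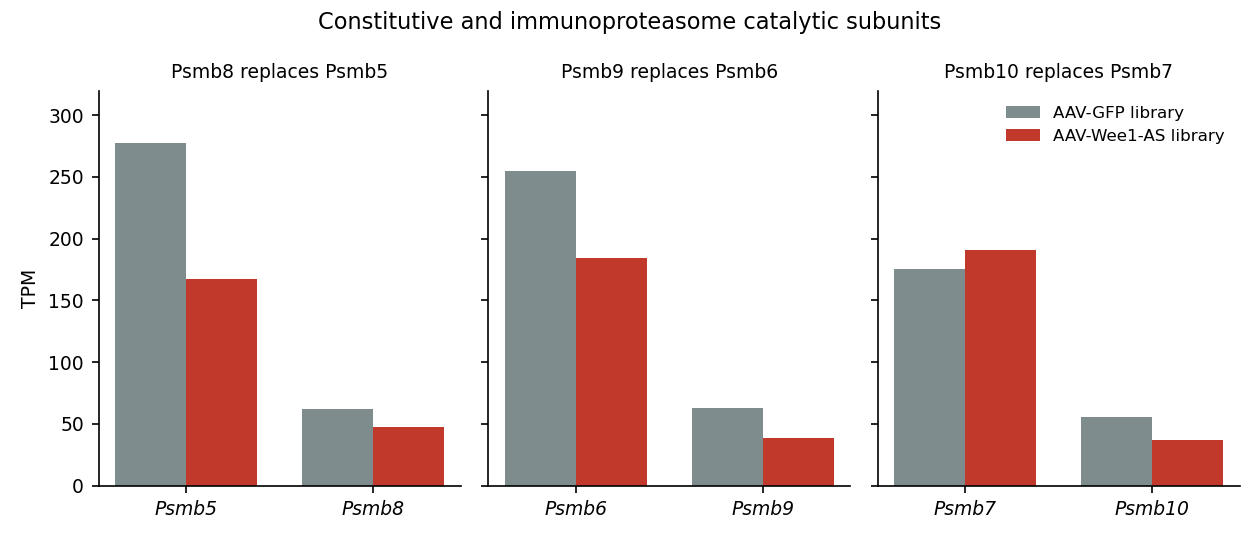
TPM (bars, axis from 0) of the 3 constitutive catalytic subunits and the immunoproteasome subunits that replace them, in the AAV-GFP (grey) and AAV-Wee1-AS (red) libraries, 1 library per bar. Psmb5 was at 277 and 167 TPM and Psmb6 at 255 and 185, while Psmb7 was at 176 and 191; each immunoproteasome bar is the shorter of its pair.

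Immunoproteasome subunits are abundant in immune cells, and in bulk liver fewer cells of a type and less RNA per cell cannot be told apart. Of 8 pan-leukocyte markers, 6 were more than 2-fold lower with AAV-Wee1-AS (8.71% of all genes) and 2 more than 2-fold higher (22.2%), with a median log2 ratio of -1.13 (-0.54 with the trends removed). Their summed level was 365 CPM (counts scaled by TMM to a common library size) in AAV-GFP and 163 CPM in AAV-Wee1-AS, and no marker was at 0. At the ends were Cd53 (1.14) and Ptprc (1.13), and Coro1a (-1.32) and Cd74 (-1.32), with trend-removed ratios of -0.07, -0.39, -0.54 and -0.63. The 12 markers of Kupffer cells and macrophages summed to 929 and 654 CPM (median -0.27, or -0.11 with the trends removed; 3 more than 2-fold higher and 2 lower, against 22.2% and 8.71% of all genes), with Marco (1.60) and Vsig4 (1.52) highest and C1qc (-1.03) and C1qb (-1.01) lowest (2.17, 0.80, -0.26 and -0.25 with the trends removed). Lymphoid and other myeloid markers were scarce: T and NK cell markers summed to 5.27 and 5.11 CPM (median -0.23), B and plasma cell markers to 13.98 and 19.97 (0.08, with Ms4a1 at 0 counts in AAV-GFP and 23 in AAV-Wee1-AS), dendritic cell markers to 11.5 and 8.34 (0.23, or -0.32 with the trends removed) and neutrophil markers to 6.91 and 4.05 (-0.47, with Ly6g at 0 in both). With the trends removed the T and NK, B and plasma cell, and neutrophil medians were -0.33, 0.33 and -0.91. Among the 7 dendritic cell markers, 4 were higher and 3 lower with AAV-Wee1-AS. The most abundant of the 7 in AAV-GFP, Itgax, had 421 counts there and 73 in AAV-Wee1-AS (-2.24, also -2.24 with the trends removed). Of the markers of other liver cells, those of the endothelium summed to 255 and 233 CPM, those of stellate cells to 248 and 270 and those of cholangiocytes to 38.2 and 34.3. The part of immune cells in the immunoproteasome values was not tested.

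Genes of interferon induction and peptide loading did not share one direction. Of 18 fixed genes, 7 were higher and 11 lower (2 and 1 past 2-fold, against 22.2% and 8.71% of all genes) with a median of -0.12, or 0.07 with the trends removed. The kinase gene Jak2 had 150 and 681 counts (2.43) and the peptide-trimming protease gene Erap1 1714 and 3945 (1.47). The transcription factor gene Irf8, which is typical of myeloid cells, had 904 and 345 counts (-1.12) and the receptor gene Ifngr2 1766 and 776 (-0.92). The genes with the most positive ratios had low GC content, 44.3% for Jak2 and 41.5% for Erap1, and with the trends removed their ratios were 1.26 and -0.13. Those of Irf8 and Ifngr2 were -0.63 and -1.11.

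In the constitutive 20S core the alpha and beta rings differed in direction. The 7 alpha ring genes had a median log2 ratio of 0.31, with 5 higher and 2 lower, and summed to 696 TPM in AAV-GFP and 783 in AAV-Wee1-AS. The 4 beta ring genes without a cutting site were all lower (Psmb2 was at 0.29 on curated transcripts alone), with a median of -0.52, and summed to 946 and 630 TPM. The 3 catalytic ones had a median of -0.44 and summed to 707 and 542 TPM. The signs of these 3 medians were the same under library totals, DESeq2 size factors and upper quartile scaling, which lowered the median of all genes from -0.02 to -0.22. With the GC and length trends removed the medians were -0.13, -0.20 and 0.04, opposite in sign for the alpha ring and the catalytic genes; with GC content from the longest transcript they were -0.0017, -0.27 and -0.080.

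Among alpha ring genes, Psma4 was highest in ratio, with 2800 and 4068 counts (0.80, 0.73 to 0.87). Psma1 had 2428 and 3249 counts (0.68). Psma7 was lowest, with 6778 and 4095 counts (-0.46, -0.52 to -0.41). Between them were Psma6 (4063 and 4563 counts, 0.43), Psma3 (4484 and 4630, 0.31), Psma2 (2960 and 2856, 0.21) and Psma5 (2846 and 2210, -0.10). The trend-removed ratios of Psma4, Psma1, Psma6, Psma5 and Psma7 were 0.16, -0.10, 0.02, -0.13 and -0.14; that of Psma7 was 0.29 with GC content from the longest transcript. Psma7 was also the most abundant of the ring in AAV-GFP, at 215 TPM against 57.3 for Psma3, the least abundant. In AAV-Wee1-AS the range was from 65.1 TPM (Psma5) to 164 TPM (Psma6). Psma8, the alpha subunit of the testis, had 0 counts in AAV-GFP and 26 in AAV-Wee1-AS, at least 10.4-fold higher against a floor of 3 counts in AAV-GFP, a bound that leaves out counting error in the 26 counts; the lower end of the counting interval was 2.98 on the log2 scale. All 26 counts were assigned to a predicted RefSeq model, XM_006526294, at 0.47 TPM.

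In the beta ring, Psmb3 and Psmb4 were lowest in ratio, with 7079 and 3586 counts (-0.72, -0.78 to -0.66) and 8267 and 4269 counts (-0.69). Psmb1 had 8155 and 5324 counts (-0.35) and Psmb2 3920 and 2583 (-0.34). Of the catalytic subunits, Psmb5, the chymotrypsin-like one, had 7955 and 4059 counts (-0.71, -0.76 to -0.65). Psmb6, the caspase-like one, had 8684 and 5335 counts (-0.44). Psmb7, the trypsin-like one and the only constitutive beta subunit above 0 over all transcripts, had 5436 and 5001 counts (0.14, 0.09 to 0.20), and it was at -0.06 under upper quartile scaling. The trend-removed ratios of Psmb2, Psmb3, Psmb4, Psmb5, Psmb6 and Psmb7 were -0.10, -0.11, -0.29, 0.03, 0.28 and 0.04; with GC content from the longest transcript Psmb3, Psmb6 and Psmb7 were at -0.61, -0.080 and -0.99. With the trends removed, 3 core genes were more than 2-fold lower (7.87% of all genes): Psma2 (-1.17), Psma3 (-1.02) and Psmb1 (-1.05). With GC content from the longest transcript they were at -0.97, -0.82 and -0.30, and none was past 2-fold. The GC values of Psma2, Psma3 and Psmb1 come from GENCODE transcripts of 2911, 2846 and 1758 bases, while the deposited transcripts measure 946, 2374 and 1036 bases, so these corrected values are uncertain.

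The 19S cap had a median log2 ratio of -0.05, with 8 of its 17 genes higher and 9 lower. The 6 ATPases, the ring that unfolds substrates, had a median of 0.02 with 3 higher and 3 lower; the median was -0.04 with library totals and -0.19 with upper quartile scaling, which left 1 higher and 5 lower. Psmc6 stood apart, with 764 counts in AAV-GFP and 2364 in AAV-Wee1-AS (1.89, 1.77 to 2.01). Of the other ATPases, Psmc1 had 5859 and 5200 counts (0.09), Psmc2 4311 and 3822 (0.09) and Psmc5 4068 and 3272 (-0.05, with an interval that holds 0). Psmc3 had 7792 and 5385 counts (-0.27) and Psmc4 7474 and 4440 (-0.49). In AAV-GFP, Psmc6 was at 14.5 TPM while the other 5 ATPases lay between 89.1 and 158 TPM. In AAV-Wee1-AS it was at 54.1 TPM and the others between 91.8 and 124 TPM. Psmc6 has the lowest GC content of the constitutive subunits, 37.0% (from a transcript of 2234 bases against 1564 deposited), and with the trends removed its ratio was 0.53. Those of Psmc1 to Psmc5 were 0.10, -0.02, 0.36, 0.03 and 0.25, but Psmc2 was at -1.10, past 2-fold lower, and Psmc4 at -0.032 with GC content from the longest transcript.

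The 11 non-ATPase subunits had a median log2 ratio of -0.17, with 5 higher and 6 lower. Psmd1, a large scaffold subunit, had 3180 and 5554 counts (1.07, 1.01 to 1.13), just past the 2-fold limit. It fell short of that limit under upper quartile scaling (0.86) and with FPKM (0.97). Psmd14, the deubiquitinase that removes ubiquitin chains before degradation, had 1637 and 2475 counts (0.86, 0.77 to 0.95). The lid subunits Psmd12 and Psmd6 had 2102 and 2806 counts (0.68) and 1984 and 2360 counts (0.51). These 4 were the only non-ATPase subunits above 0 with an interval that excludes 0, as was the case for 39.1% of all genes. Psmd2, the other large scaffold subunit, differed little, with 10623 and 8858 counts (0.00, -0.04 to 0.04). Psmd8 had 11522 and 5313 counts (-0.85, -0.90 to -0.81), Psmd13 7059 and 3836 (-0.62) and the ubiquitin receptor Psmd4 7156 and 3956 (-0.59). Psmd3 (-0.47), Psmd11 (-0.29) and Psmd7 (-0.17) were lower too. Trend-removed ratios were 0.51 for Psmd1, -0.06 for Psmd14, -0.09 for Psmd12 and 0.16 for Psmd6. They were -0.33 for Psmd8, -0.14 for Psmd13, 0.03 for Psmd4, 0.23 for Psmd3 and -0.67 for Psmd11. With GC content from the longest transcript Psmd11 was at -1.46, past 2-fold lower, Psmd12 at 0.54, Psmd14 at 0.054 and Psmd4 at -0.11. Gm15542, which overlaps Psmd13 by 1481 bases, had 328 and 785 counts, and since strand use in the counting is not stated, reads of the 2 genes may not be separable.

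**Figure D3:**
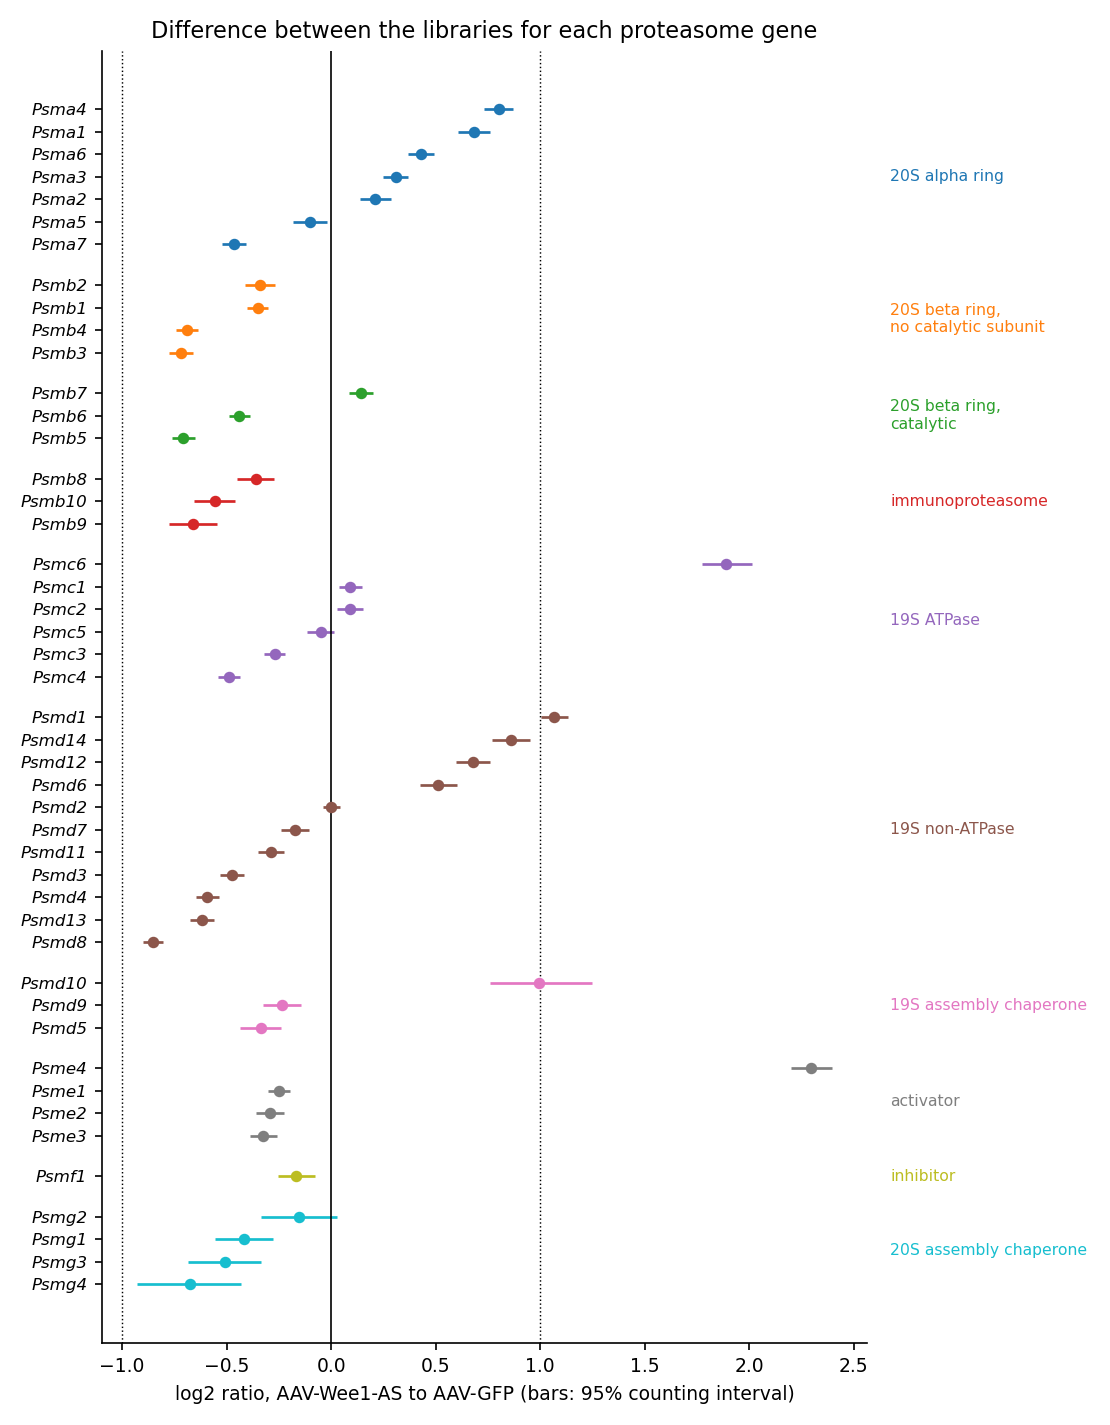
Log2 ratio, AAV-Wee1-AS over AAV-GFP (points), with the 95% counting interval (bars) for 46 proteasome genes by role; dotted lines mark 2-fold. The alpha ring lies mostly right of 0 and the beta ring and immunoproteasome genes, Psmb7 excepted, left of it (Psmb2 lies right of it on curated transcripts alone), and Psmc6, Psmd1 and Psme4 lie past 2-fold; with the GC and length trends removed the medians of the alpha ring, the catalytic and the immunoproteasome genes take the opposite sign, though with GC content from the longest transcript the catalytic median does not (-0.080).

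The constitutive subunits were closer to each other in level in the AAV-Wee1-AS library. Complete 26S proteasomes need these subunits in fixed proportions, so their TPM values were compared within each library. Among the 31, TPM ran from 14.5 (Psmc6) to 294 (Psmb3) in AAV-GFP, a 20.3-fold range with an SD of 1.07 on the log2 scale. Psmc6 alone set the lower end of that range, the next lowest being Psmd1 at 29.6 TPM. In AAV-Wee1-AS it ran from 48.4 (Psmd11) to 191 (Psmb7), a 3.94-fold range with an SD of 0.61. The medians were alike, 109 and 107 TPM. The narrowing was seen in the core (SD 0.88 and 0.52 over 14 genes) and in the cap (1.07 and 0.47 over 17). Within AAV-GFP the TPM of the 31 genes was higher at higher GC content (Spearman coefficient 0.69), and within AAV-Wee1-AS less so (0.38). These are descriptions of 2 libraries, and genes are not independent replicates. The spread of other gene sets was not computed, nor was that of these subunits with the GC trend removed. The narrowing is thus not shown to be particular to the proteasome.

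The log2 ratio of the constitutive subunits ran with GC content much as that of all genes did. The Spearman coefficient was -0.83 over the 31 subunits, whose GC content lay between 37.0% and 58.3%, and -0.80 over the 14 core and -0.85 over the 17 cap genes. In the bin with the lowest GC content (up to 42.1%), the constitutive subunits Psma2, Psma3 and Psmc6 had a median of 0.31 against 1.51 for all genes. In the bin from 48.6% to 50.4%, 5 subunits had a median of 0.09 against 0.12, and in the bin from 54.0% to 55.9%, 3 had a median of -0.44 against -0.51. The median of the constitutive subunits lay below that of all genes in 7 of the 10 bins and above it in 3, and each bin held between 1 and 5 of them. The part of the GC trend in the ratios was not tested beyond the corrected values.

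**Figure D4:**
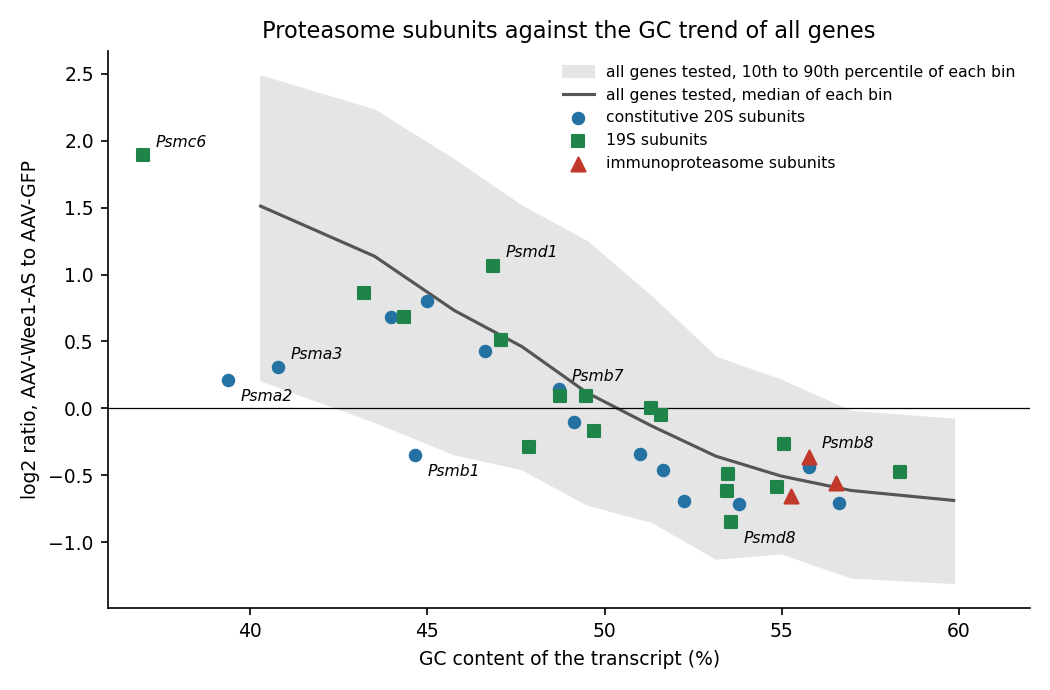
Log2 ratio, AAV-Wee1-AS over AAV-GFP, against the GC content of the transcript (%) for the constitutive 20S subunits (circles), 19S subunits (squares) and immunoproteasome subunits (triangles), over the median (line) and the 10th to 90th percentile (band) of all genes tested in 10 GC bins. Psmc6 at 37.0% GC is highest, at 1.89, the 3 immunoproteasome subunits lie near the line between 55.3% and 56.5% GC, and Psmb1 at 44.7% GC, an uncertain value (49.2% from the longest transcript), lies at the lower edge of the band.

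Among the activators, Psme4 differed from the rest. Psme4, the large nuclear activator PA200, had 1047 counts in AAV-GFP and 4292 in AAV-Wee1-AS (2.30, 2.20 to 2.40), the highest ratio of a proteasome gene with over 100 counts in each library. Its trend-removed ratio was 0.93. Its gene overlaps Erlec1 by 18357 bases, and Erlec1 had 965 and 1352 counts (0.75). The interferon-inducible pair Psme1 and Psme2, which forms the PA28 cap used with immunoproteasomes, had 6726 and 4712 counts (-0.25) and 4259 and 2896 counts (-0.29), with trend-removed ratios of 0.38 and 0.18. Psme3, the nuclear relative of this pair, had 4868 and 3238 counts (-0.32, trend-removed -0.39). Psmf1, an inhibitor of the core in vitro, had 2353 and 1747 counts (-0.17, trend-removed -0.53). In TPM, Psme1 was at 209 and 173 and Psme4 at 4.94 and 24.0.

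Assembly chaperones were mostly lower. The 4 chaperones of the core, Psmg1 to Psmg4, had a median of -0.46. Psmg4 had 388 and 202 counts (-0.67, -0.93 to -0.43), its partner Psmg3 747 and 437 (-0.51) and Psmg1 1094 and 683 (-0.42). Psmg2, the partner of Psmg1, had 578 and 433 counts and an interval that holds 0 (-0.34 to 0.03). With the trends removed the median of the 4 was -0.01, or -0.21 with GC content from the longest transcript. Of the chaperones of the cap, Psmd5 had 2129 and 1404 counts (-0.34), Psmd9 2302 and 1629 (-0.24) and Psmd10, also known as gankyrin, 223 and 372 (0.99, 0.76 to 1.25), just short of the 2-fold limit. Their trend-removed ratios were -0.58, 0.09 and -0.05, and -1.15, -0.035 and 0.057 with GC content from the longest transcript. The value of -0.58 for Psmd5 is uncertain, since it rests on an unpaired GENCODE transcript of 555 bases against 1994 deposited. Psmd10 overlaps Atg4a by 2835 bases, and Atg4a had 253 and 624 counts. The remaining symbols were near the detection limit: Psmb7-ps2, a pseudogene of Psmb7 with which reads may be shared, had 4 and 11 counts, Psme2b 23 and 14, and Psmc3ip, which is no proteasome gene, 19 and 20. Each of these had an interval that holds 0.

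In some genes the transcripts of the table differed in opposite directions. Estimated counts are shares assigned to overlapping transcripts, and 20 of the genes had 2 or more detected transcripts while 29 have only 1 in the table. The counting interval of a transcript leaves out error in this assignment. In Psmb2, the curated transcript NM_011970 had 2572 and 2553 counts (0.25), while the predicted model XM_006503117 had 1348 and 30 (-5.14, -5.80 to -4.71), so that its share of the gene was 34.4% in AAV-GFP and 1.16% in AAV-Wee1-AS. In Psma3, NM_011184 had 2146 and 4121 counts (1.20) while NM_001310596 had 1704 and 391 (-1.86) and NM_001310595 632 and 118 (-2.14). In Psmc6, NM_025959 had 595 and 2342 counts (2.24) and the model XM_030247969 169 and 22 (-2.58). In each of these 3 genes the main transcript took a larger share in AAV-Wee1-AS, 98.8%, 89.0% and 99.1% against 65.6%, 47.9% and 77.9%. Psmg4 had the same direction, with NM_001101430 at 66.5% and 85.6%. In Psmg2 the direction was the other one, with NM_134138 at 99.0% and 85.0%. In Psmd4 all 4 transcripts were lower, by ratios from -1.63 to -0.31. Counted on the main transcript alone, Psma3 had a log2 ratio of 1.23 and Psmb2 of 0.28, and the median of the 14 constitutive core genes was 0.05, against -0.22 over all transcripts.

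**Figure D5:**
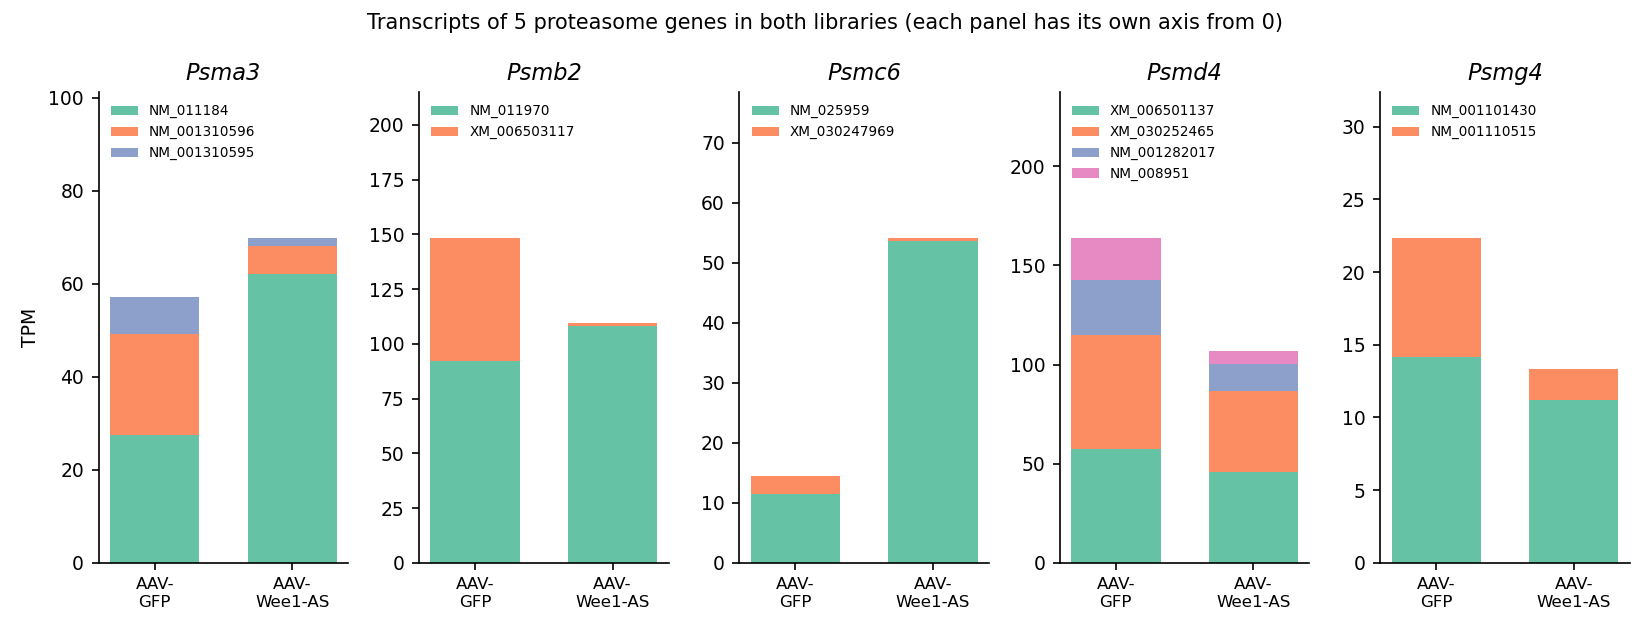
TPM of each transcript (stacked bars from 0, RefSeq identifiers) of Psma3, Psmb2, Psmc6, Psmd4 and Psmg4 in the AAV-GFP and AAV-Wee1-AS libraries, 1 library per bar. The second transcript of Psmb2 goes from 56.1 to 1.47 TPM and the 2 shorter segments of Psma3 from 21.8 and 7.996 to 5.90 and 1.75 TPM, while in Psmd4 all 4 segments are smaller with AAV-Wee1-AS.

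Genes that build, hold or regulate the proteasome under other names were divided. Of 13 fixed components and partners, 12 had a row and passed the count filter, 7 higher and 5 lower, with a median log2 ratio of 0.10 (-0.42 with the trends removed). Ecpas, which tethers proteasomes, had 889 and 3630 counts (2.29, trend-removed 0.90) and Uchl5, a deubiquitinase of the cap, 313 and 600 (1.20). Adrm1, the ubiquitin receptor that docks Uchl5, had 4943 and 2631 counts (-0.65) and Midn, which brings nuclear proteins to the proteasome, 2537 and 1402 (-0.59, trend-removed -0.025). Uchl5 and its docking site Adrm1 thus differed in opposite directions, with GC contents of 39.2% and 60.3% and trend-removed ratios of -0.05 and 0.16.

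Of 11 genes that control transcription of proteasome genes, 10 passed the filter, with 5 higher and 5 lower and a median of -0.10. Bach1, a repressor at antioxidant response elements, had 318 and 1271 counts (2.25) and Ddi2, the protease that releases active Nfe2l1, 3238 and 7065 (1.39). The small Maf genes Maff and Mafk had 937 and 255 counts (-1.61) and 1289 and 594 counts (-0.85). Their trend-removed ratios were 1.37, 0.47, -0.88 and -0.35, of the same signs. Nfe2l1 itself, named here for its role after its value was seen, had 10421 and 7428 counts (-0.22).

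Genes of ubiquitin and its shuttles had a median of -0.39, with 3 of 11 higher and 8 lower, and a median of -0.09 with the trends removed. The shuttle gene Ubqln4 had 3001 and 1625 counts (-0.62). The activating enzyme gene Uba6 had 67 and 193 counts (1.76) and Ubqln1, another shuttle gene, 3939 and 5042 (0.62). The trend-removed ratios of Ubqln4, Uba6 and Ubqln1 were -0.15, -0.09 and 0.16. Another list held 19 genes of the anaphase-promoting complex, the ligase that marks CYCLIN B1 for the proteasome, and of its regulators and E2 enzymes. Of these 19, 8 were higher and 11 lower (2 and 1 past 2-fold, against 22.2% and 8.71% of all genes) with a median of -0.17. The subunit genes Cdc27 (240 and 932 counts, 2.21) and Anapc4 (315 and 671, 1.35) were highest, and the activator gene Cdc20 (218 and 82, -1.13) and the subunit gene Anapc2 (5696 and 2657, -0.84) lowest. Their trend-removed ratios were 0.55, 0.36, -0.47 and -0.36.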

How the data were processed

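Poly-A RNA of liver was sequenced in 1 library per group. Per the submitters' processing notes and the labels, reads were handled with Trimmomatic 0.38, HISAT2 2.1.0, SAMtools 1.9 and StringTie 2.1.3b on mm10. The authors deposited 1 table with an estimated count, an FPKM value and a TPM value per RefSeq transcript and library. Per the values, the authors left the estimated counts unnormalized; they were summed here per symbol. The FPKM and TPM values are deposited as scaled by the authors per length and library. Counts were scaled by TMM (edgeR 4.0.16, R 4.3.3; factors 1.02 and 0.980), with a prior count of 2 and a filter of at least 10 counts in at least 1 library. No test was run, and calls are ratios past 2-fold or 1.5-fold. Alternatives were library totals, DESeq2 1.42.0 and upper quartile scaling, other filters and prior counts, FPKM or TPM with a pseudocount of 1, curated or most abundant transcripts alone, and removal of GC and length trends by lowess (span 0.3, 5 cycles; statsmodels 0.14.6). GC content came from the GENCODE transcript paired with the most abundant RefSeq transcript (44 of 50 genes) or the one nearest in length; for 22 of the 34 constitutive and immunoproteasome subunits its length was within 10% of the deposited one. Functions were tested on simulated data. Any symbol that matches the pattern may be named; of each pathway and main immune list, the 2 highest and 2 lowest ratios among genes with at least 100 counts were named, except 1 that is not reported here. Members and lists were chosen with earlier results of these data known.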

Additional observations from a re-analysis of the deposited data

How the results depend on the processing

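With 1 library per group, leaving out a replicate was not possible. No paired analysis was possible because each group has 1 library and no test was made. Over all alternatives, the counts stayed within 1.5 times, and the medians and pair changes within the half-width of their counting interval, in 106 cases, differed by more in 22 and changed sign in 8. DESeq2 size factors, library totals, a prior count of 0.5 and no count filter kept each of the 11 within these limits. For single genes, 428 ratios stayed within such a limit (Psma8, whose interval has no upper bound, above its lower bound) and 168 did not. The cause of the other differences was not tested. With GC and length trends removed, the immunoproteasome median was 0.16 in place of -0.56, its gap to the constitutive median 0.18 in place of -0.46, and the change of Psmb10 over Psmb7 0.12 in place of -0.70. With GC content taken from the longest transcript, an alternative chosen after seeing the data, these were 0.12, 0.15 and 1.16, and the changes of Psmb8 over Psmb5 and Psmb9 over Psmb6 were 0.070 and -0.051. The constitutive 20S median of -0.22 was 0.062 with curated transcripts and 0.050 with the most abundant transcript, and it was -0.11 and -0.072 with trends removed (paired and longest transcript). The median of all constitutive subunits was -0.017 with trends removed, -0.0093 with curated transcripts and -0.31 with upper quartile scaling, which gave -0.43 for the 20S core and -0.76 for the immunoproteasome. Genes more than 2-fold higher numbered 5, but 7 with the most abundant transcript, 6 with DESeq2 size factors or a prior count of 0.5, 4 with curated transcripts or upper quartile scaling, 2 with FPKM, 3 with TPM, 3 with at least 10 counts in both libraries, and 1 and 2 with trends removed (paired and longest transcript). Genes more than 2-fold lower numbered 0, but 3 with trends removed (Psma2, Psma3 and Psmb1 with the paired transcript, and with the longest none of these but Psmc2, Psmd11 and Psmd5, at -1.10, -1.46 and -1.15), 1 with curated transcripts and 1 with upper quartile scaling. At 1.5-fold, 10 higher became 3 and 5 with trends removed (paired and longest transcript), and 8 lower became 5 with trends removed (paired transcript) and 16 with upper quartile scaling. Of all genes, 22.2% were more than 2-fold higher and 8.71% lower, or 7.05% and 7.87% with trends removed (paired transcript). At 1.5-fold these shares were 31.8% and 24%, or 16.5% and 16.9%. Shares of all genes under the other settings are not given, so the counts there cannot be set apart from shifts of all genes. The intervals cover counting error and no difference between mice. Genes under 100 counts in both libraries, such as Psma8 and the pseudogenes, are limited by depth.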
